A study of Mus musculus with 6 samples.

Results

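The retinoic acid genes measured here are 10 genes chosen by name from the 24062 genes counted in each library for their roles. The choice was made with earlier results of these data known. They make retinoic acid (*Aldh1a2*), bind it in the cytoplasm (*Crabp1*, *Crabp2*), break it down (*Cyp26a1*, *Cyp26b1*) or act as its nuclear receptors (*Rara*, *Rarb*, *Rarg*, *Rxra*, *Rxrb*). RNA was sequenced from CD31+ckit+ cells of the aorta-gonad-mesonephros region (AGM) of Gata2Venus mouse embryos (strain C57BL/6JOlaHsd) at embryonic day 10.5. The cells were sorted into an intermediate (Vmed) and a high (Vhigh) Venus fraction, with 3 libraries each, numbered 1 to 3 in both. All embryos carried 1 Venus allele, in which an IRES-Venus cassette inserted behind the coding sequence reports *Gata2* transcription. The number of embryos behind each library is not given in the sources used here. The study describes its RNA-sequencing values as coming from independent experiments. The labels do not tie a library to a litter or a sort, so p-values measure the spread between these libraries.

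Retinoic acid is made from vitamin A in 2 oxidation steps, and the second is irreversible and is carried out by retinaldehyde dehydrogenases. It enters the nucleus and binds heterodimers of a retinoic acid receptor (RAR) and a retinoid X receptor (RXR), which sit on response elements in target genes and exchange corepressors for coactivators when the ligand binds. In the embryo, signaling depends on where the synthesizing and the degrading enzymes are expressed, and loss of *Aldh1a2* from vascular endothelium impairs the formation of hematopoietic stem cells. The comparison of the fractions asks how these genes differ between emerging hematopoietic cells with an intermediate and a high level of the *Gata2* reporter.

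All 10 genes passed the filter on low counts. The fitted level of *Aldh1a2* was 18.8-fold higher in Vmed than in Vhigh cells, and *Rxra*, *Cyp26a1* and *Rarb* were also lower in every Vhigh library than in every Vmed library. Such a lack of overlap, with Vhigh below, was found for 4 of the 10 genes, against 4.71% of all 12688 genes tested, and with Vhigh above for 0 of the 10, against 4.15%. With single libraries left out the count was 4 to 6, and it was 4 without Vhigh replicate 1. Leaving out a library cannot end a lack of overlap, so the count could not fall below 4. The fractions overlapped for the other 6 genes, and *Rxrb* had the smallest fitted difference. None of these differences passed the quasi-likelihood test across all genes that follows.

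In edgeR's quasi-likelihood test, 0 of the 10 genes had an adjusted p under 0.05, as did 0% of the genes tested (259 had an unadjusted p under 0.05, and 528 in the fit with the replicate block described next). The adjusted p was 0.9998 for each of the 10 genes, so it does not rank them. At an unadjusted p under 0.05 with a lower level in Vhigh, 1 of the 10 genes (*Aldh1a2*) was counted, against 1.17% of all genes. DESeq2's Wald test called 1 of the 10 genes lower in Vhigh, again *Aldh1a2* (adjusted p = 0.0028), against 0.244% of all genes. The median log2 fold change of the 10 genes (Vhigh over Vmed, here and below) was -2.09, against -0.02 for all genes tested, and it was -2.61 against -0.12 when replicate numbers entered the model (the blocked fit). In the same-numbered pairs of libraries, 6 of the 10 genes were lower in Vhigh in 3 of 3 pairs, as were 15.4% of all genes. These 6 were *Aldh1a2*, *Crabp1*, *Crabp2*, *Cyp26a1*, *Rarb* and *Rxra*. For *Aldh1a2*, *Cyp26a1*, *Rarb* and *Rxra* this follows from their lack of overlap and is not a separate result.

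The libraries held between 8296831 and 12035206 counts on genes. Vhigh replicate 1 stood apart with the fewest genes detected (10427, against 12709 to 18460 in the others), and 7 of the 10 genes had their lowest level there. The share of all genes with their lowest level there was not taken, so this count is not read as a trait of the 10. In edgeR's estimate the biological coefficient of variation between libraries of a fraction was 1.16. Of the sorting markers, *Kit* ranged from 59.1 to 207.5 CPM (gene counts scaled to a common library total) in Vmed and from 254.5 to 521 CPM in Vhigh. *Pecam1*, which encodes CD31, ranged from 118 to 569.5 and from 160.1 to 436 CPM, and *Gata2* itself from 29.4 to 68.3 and from 39.2 to 142 CPM. In Vhigh replicate 1 *Gata2* (39.2 CPM) was below Vmed replicates 1 and 3 (50.3 and 68.3 CPM), against the order of the labels, which rest on Venus fluorescence and not on *Gata2* RNA, whereas its *Kit* level was above each Vmed library. Without it the 10 genes kept the direction of their fitted difference, 0 of them passed the threshold, and the values were -4.11 for *Aldh1a2*, -3.21 for *Crabp1*, -0.30 for *Cyp26b1*, -1.06 for *Rara*, -0.23 for *Rarg* and 0.27 for *Rxrb*, with the others given beside each gene. Markers of other cell types were counted in both fractions as well. The summed level of 10 mesenchyme markers was 1727 to 4389 CPM in Vmed and 190.3 to 532.2 CPM in Vhigh, with 9 of the 10 markers lower on average in Vhigh. For 8 macrophage markers it was 812.5 to 1483 and 85.4 to 292.4 CPM (8 of 8 lower), and for 8 markers of mesonephros and coelomic epithelium 56.3 to 112.1 and 10.8 to 32.3 CPM (6 of 8 lower). In contrast, 10 hematopoietic stem and progenitor markers summed to 191.9 to 435.6 CPM in Vmed and 601.5 to 1489 CPM in Vhigh, with 0 of the 10 lower. The sorting marker *Kit* is among these 10. It alone accounted for 59.1 to 207.5 CPM of the Vmed sums and 254.5 to 521 CPM of the Vhigh sums. The 8 endothelial markers were again mostly lower in Vhigh (7 of 8), with overlapping sums of 1173 to 4236 and 882.6 to 3037 CPM. In these bulk samples, fewer cells of a type and less RNA per cell cannot be told apart.

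**Figure D1:**
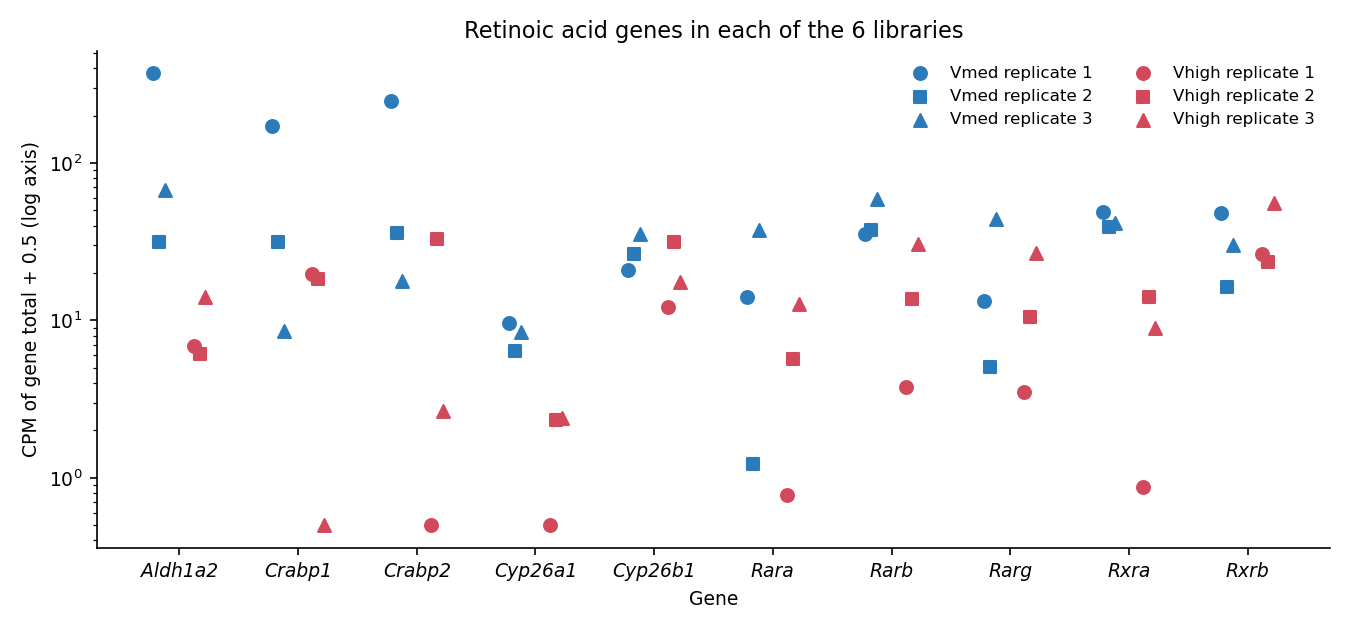
Level of each of the 10 genes in every library, as CPM of the gene total plus 0.5 on a log axis. Blue symbols are Vmed and red symbols Vhigh, and the symbol gives the replicate number. *Aldh1a2*, *Cyp26a1*, *Rarb* and *Rxra* show no overlap of the fractions, and a gene without counts sits at 0.5.

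*Aldh1a2* encodes the main retinaldehyde dehydrogenase of the midgestation embryo and lies on chromosome 9 (GRCm38, 71215789 to 71296243, plus strand). It was expressed at 370.0, 30.7 and 67.1 CPM in Vmed replicates 1, 2 and 3 and at 6.38, 5.62 and 13.6 CPM in Vhigh replicates 1, 2 and 3. The lowest Vmed library was therefore above the highest Vhigh library, and Vmed replicate 1 stood far above the other 2. The mean was 156 ± 186 CPM (SD, n = 3) in Vmed and 8.54 ± 4.42 CPM in Vhigh. The fitted log2 fold change was -4.24 ± 0.92 (standard error, here and below), and its unadjusted quasi-likelihood p of 0.0023 ranked 24 of 12688 genes. Permuting the fraction labels in all 20 ways (exact, two-sided, log2 scale) gave p = 0.1, the smallest that 3 libraries against 3 allow. Any gene without overlap gets this permutation p, here and below, so it adds nothing to the lack of overlap. In the blocked fit the log2 fold change was -3.46 ± 0.76 (quasi-likelihood, adjusted p = 0.92), and without Vmed replicate 1 it was -2.52. The fraction with more *Aldh1a2* also had more of the mesenchyme, coelomic epithelium and macrophage markers, and the part of these cells in the difference was not tested. Among the libraries of Vmed, the highest *Aldh1a2* level was in replicate 1, which had the lowest mesenchyme sum of the 3 (1727 CPM). Its macrophage sum (1483 CPM) and coelomic epithelium sum (112.1 CPM) were the highest, the latter close to replicate 3 (106.6 CPM). It was also highest for neural (251.7 CPM) and primitive erythroid markers (601.7 CPM). For hematopoietic (191.9 CPM), endothelial (1173 CPM) and primordial germ cell markers (6.87 CPM) it was lowest, and its megakaryocyte sum lay in between.

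**Figure D2:**
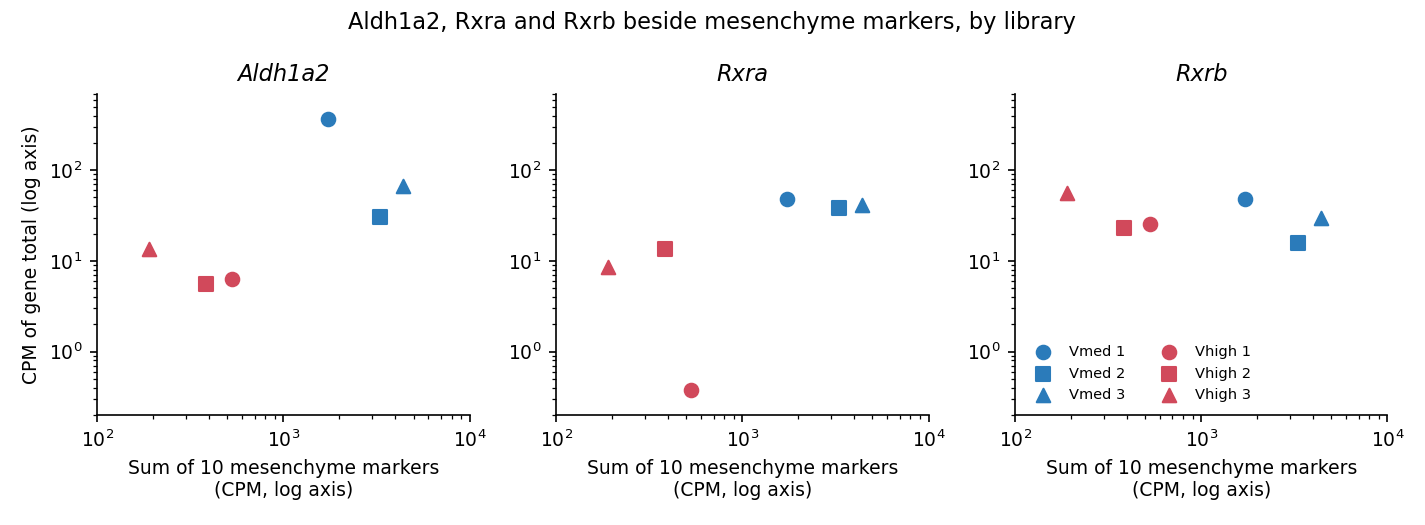
CPM of *Aldh1a2*, *Rxra* and *Rxrb* (vertical log axes) against the summed CPM of 10 mesenchyme markers (horizontal log axes), 1 point per library. *Aldh1a2* and *Rxra* separate the fractions as the marker sum does, and *Rxrb* does not. The Vmed library with the most *Aldh1a2* has the smallest mesenchyme sum of that fraction. It also has the fraction's highest macrophage, coelomic epithelium, neural and primitive erythroid sums, which are not drawn. The coelomic epithelium sum is close to that of Vmed replicate 3. The part of these cells in the difference was not tested.

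The other retinaldehyde dehydrogenases were measured at low levels and were not tested. *Aldh1a3* had 0, 7.59 and 14.3 CPM in Vmed and 0, 0.55 and 0 CPM in Vhigh replicates 1, 2 and 3. *Aldh1a1* was at 0.46 CPM or less in every library but Vhigh replicate 3 (4.15 CPM), and *Aldh8a1* had counts only in replicate 2 of each fraction (2.77 and 5.25 CPM).

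*Crabp1* and *Crabp2* encode cellular retinoic acid binding proteins. CRABP2 hands the ligand to RARs in the nucleus, and CRABP1 holds it in the cytoplasm and favors its breakdown. *Crabp1* (chromosome 9, 54764748 to 54773110) was expressed at 169.9, 31.1 and 8.03 CPM in Vmed and at 19.2, 17.8 and 0 CPM in Vhigh replicates 1, 2 and 3. The fractions overlapped, as Vmed replicate 3 was below 2 Vhigh libraries. The 0 counts in Vhigh replicate 3 allow a level of up to 0.249 CPM (3 counts). *Crabp2* (chromosome 3, 87948666 to 87953376) was expressed at 247.5, 35.4 and 17.2 CPM in Vmed and at 0, 32.5 and 2.16 CPM in Vhigh replicates 1, 2 and 3, so that Vhigh replicate 2 overlapped Vmed. Both genes were highest in Vmed replicate 1, the library that was also highest for *Aldh1a2*.

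The fitted difference was -2.56 ± 1.62 for *Crabp1* (edgeR, unadjusted p = 0.17) and -3.34 ± 1.61 for *Crabp2* (unadjusted p = 0.087). Without Vmed replicate 1 these values were -0.65 and -1.34. For *Crabp2* the value was -6.67 without Vhigh replicate 2 and -2.76 without Vhigh replicate 1. Within replicate 2, the log2 difference between the fractions was -0.79 for *Crabp1* and -0.12 for *Crabp2*. Of 8 neural and neural crest markers, 6 were lower on average in Vhigh, with summed levels of 251.7, 110.3 and 41.5 CPM in Vmed and 70.4, 47.0 and 16.4 CPM in Vhigh replicates 1, 2 and 3. *Foxd3* and *Sox2* among them had no counts in Vmed. The part of these cells in the *Crabp1* and *Crabp2* values was not tested.

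*Cyp26a1* and *Cyp26b1* encode cytochrome P450 enzymes that hydroxylate retinoic acid and so remove it. Transcription of *Cyp26a1* and of *Rarb* is known to be induced directly by retinoic acid through response elements made of 2 half-sites in the same orientation. To show these elements, the promoters of both genes are given as the 100 bases that end 1 base before the transcript start, 5′ to 3′ on the strand of the gene (RefSeq, GRCm38.p6), with the element in capitals.
Cyp26a1: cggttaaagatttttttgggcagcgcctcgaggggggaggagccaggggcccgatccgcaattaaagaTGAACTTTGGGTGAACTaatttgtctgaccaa
Rarb: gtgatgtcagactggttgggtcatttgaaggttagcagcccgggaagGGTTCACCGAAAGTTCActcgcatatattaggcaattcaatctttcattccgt
The *Cyp26a1* window is chr19:37697708-37697807 on the plus strand, and its element lies 32 to 16 bases before the start, with the half-sites on the opposite strand. The *Rarb* window is chr14:16575477-16575576 on the minus strand, and its element lies 53 to 37 bases before the start.

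The motif searched was a pair of half-sites in direct repeat, each AGGTCA or GGGTCA or AGTTCA or GGTTCA, on either strand, in windows from 250 bases before to 50 bases after each RefSeq start. With a spacer of 5 bases (DR5), it was found in 2 of the 9 retinoic acid genes with a window, *Cyp26a1* and *Rarb*, and in 0.115% of 27025 genes. With a spacer of 2 bases (DR2) or 1 base (DR1) it was found in 0 of the 9, against 0.311% and 0.263% of all genes. *Crabp2* has no entry. The elements of *Cyp26a1* and *Rarb* were known beforehand, so their DR5 matches were fixed in advance. The comparison with all genes is therefore no test. A match describes the letters of the window and is not evidence of binding in these cells. Of 10 genes in the count tables with a DR5 in their window, 6 were tested, including *Cyp26a1* and *Rarb*, and 5 of these 6 had a log2 fold change below 0, as had 51.1% of all genes tested. *Cyp26a1* and *Rarb* are among these 5, and their differences are already reported with the retinoic acid genes. The count is therefore not separate from those results.

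*Cyp26a1* (chromosome 19, 37697798 to 37701536) was expressed at 9.15, 5.91 and 7.93 CPM in Vmed and at 0, 1.84 and 1.91 CPM in Vhigh replicates 1, 2 and 3. The fractions did not overlap, and the level was low in all libraries, with 0, 20 and 23 counts in Vhigh and 80, 49 and 77 in Vmed. The fitted difference was -2.70 ± 2.07 (edgeR, unadjusted p = 0.25), and the exact permutation p was 0.1. Leaving out single libraries moved it between -3.21 and -2.13, the latter without Vhigh replicate 1. *Cyp26b1* (chromosome 6, 84571414 to 84593908) was expressed at 20.5, 25.9 and 34.9 CPM in Vmed and at 11.7, 31.1 and 16.9 CPM in Vhigh replicates 1, 2 and 3. Its fractions overlapped, as Vhigh replicate 2 was above 2 Vmed libraries, and the log2 fold change of -0.52 was below its standard error of 1.08. *Cyp26c1*, the third gene of the family, had counts only in Vhigh replicate 2 (0.18 CPM), which is below the limit of 3 counts.

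The RAR genes encode the receptors that bind all-trans retinoic acid. *Rara* (chromosome 11, 98927818 to 98974942) was expressed at 13.5, 0.72 and 37.3 CPM in Vmed and at 0.28, 5.16 and 12.2 CPM in Vhigh replicates 1, 2 and 3. Its fractions overlapped widely, and replicates 1 and 3 were lower in Vhigh while replicate 2 was higher. The value of Vmed replicate 2 rests on 6 counts and that of Vhigh replicate 1 on 3. *Rarg* (chromosome 15, 102234938 to 102257517) was expressed at 12.8, 4.58 and 43.6 CPM in Vmed and at 3.00, 9.94 and 26.3 CPM in Vhigh replicates 1, 2 and 3. For both genes replicate 3 was the highest library of each fraction. The fitted difference of *Rara* was -1.62 ± 1.82 and that of *Rarg* -0.69 ± 1.44, both smaller than their errors. Without Vmed replicate 3 these values were -0.37 and 0.53, so that *Rarg* changed direction.

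*Rarb* (chromosome 14, 16430839 to 16819156, minus strand) was expressed at 35.0, 37.0 and 58.3 CPM in Vmed and at 3.28, 13.1 and 29.8 CPM in Vhigh replicates 1, 2 and 3. The fractions did not overlap, though Vhigh replicate 3 lay close to Vmed replicate 1. The fitted difference was -1.54 ± 1.1 (edgeR, unadjusted p = 0.20), and the exact permutation p was 0.1. Without Vhigh replicate 1 the difference was -1.07. The exons of *Rarb* share 2020 bases, or 38.4% of their joined length, with *Top2b* and *Gm48162* on the opposite strand, and the strand setting of the counting was not given in the sources used here. The *Rarb* counts are therefore uncertain. *Top2b* itself, looked up for this reason, differed by -0.13 ± 0.53 on the log2 scale, with 157.3, 199 and 288 CPM in Vmed and 162, 124 and 304 CPM in Vhigh replicates 1, 2 and 3.

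RXR genes encode the partners that RARs need to bind DNA, and RXRs also pair with other nuclear receptors. *Rxra* (chromosome 2, 27676440 to 27762957) was expressed at 48.2, 38.4 and 41.2 CPM in Vmed and at 0.38, 13.5 and 8.48 CPM in Vhigh replicates 1, 2 and 3. The Vmed libraries lay close together and well above the highest Vhigh library, and the mean was 42.6 ± 5.01 CPM (SD, n = 3) in Vmed and 7.46 ± 6.64 CPM in Vhigh. The fitted difference was -2.63 ± 1.27 (edgeR, unadjusted p = 0.078), and the exact permutation p was 0.1. The difference was -2.08 without Vhigh replicate 1, where *Rxra* had 4 counts. *Rxrb* (chromosome 17, 34031812 to 34038399) was expressed at 47.5, 15.8 and 29.5 CPM in Vmed and at 25.7, 23.1 and 55.4 CPM in Vhigh replicates 1, 2 and 3. Its fractions overlapped, the fitted difference was 0.14 ± 0.99, and the sign turned without Vmed replicate 2 or without Vhigh replicate 3.

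**Figure D3:**
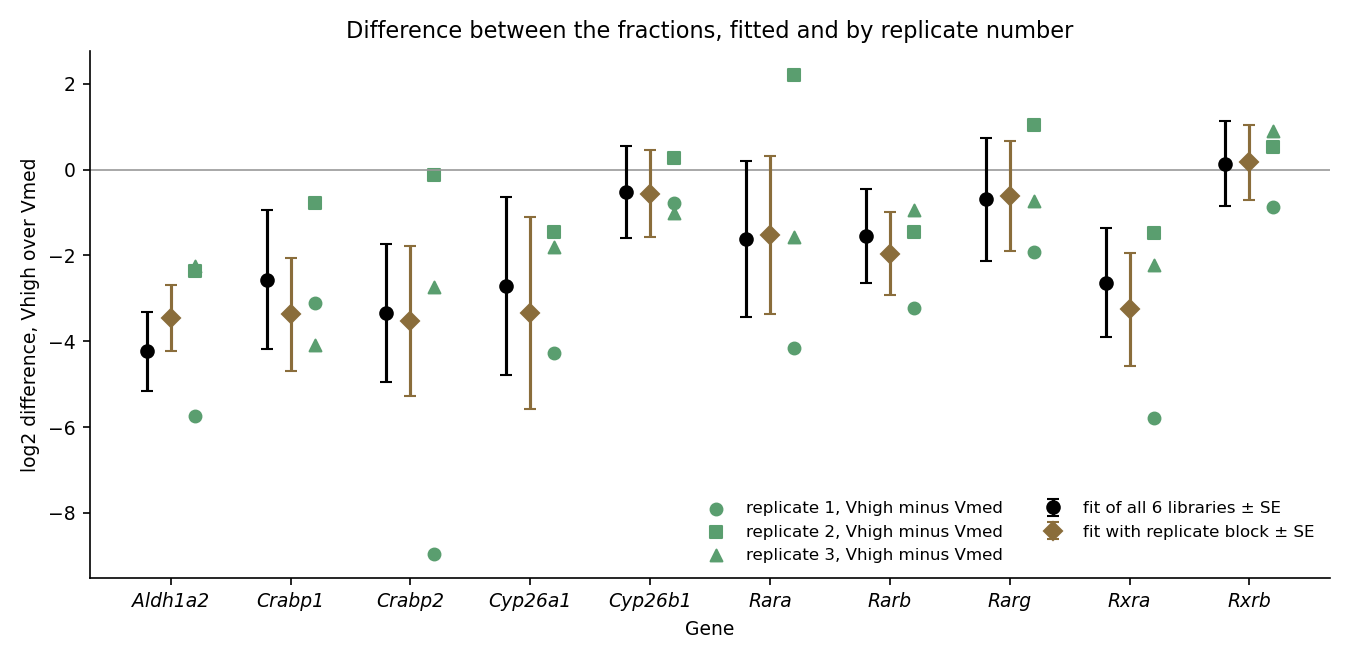
Log2 difference between the fractions for each gene, Vhigh over Vmed, on the vertical axis. Black circles are the fit of all 6 libraries and brown diamonds the fit with the replicate block, both with standard errors, and green symbols are the 3 same-numbered pairs on the log2(CPM + 0.5) scale. The green symbols of 6 genes all lie below 0, and those of *Cyp26b1*, *Rara*, *Rarg* and *Rxrb* lie on both sides.

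To compare levels between genes, CPM were divided by the length of the joined exons in kilobases (RPKM). In Vmed the order by the median was *Crabp1* (38.8 RPKM), *Aldh1a2* (29.6), *Crabp2* (26.8), *Rxra* (7.54), *Rxrb* (7.44), *Rarb* (7.03), *Cyp26b1* (4.84), *Cyp26a1* (3.997), *Rara* (3.09) and *Rarg* (3.01). Of these neighbours, only *Crabp2* and *Rxra*, and *Rarb* and *Cyp26b1*, had ranges over the 3 libraries that did not overlap. In Vhigh the order was *Crabp1* (22.2 RPKM), *Rxrb* (6.47), *Cyp26b1* (3.17), *Aldh1a2* (2.82), *Rarb* (2.48), *Rarg* (2.33), *Crabp2* (1.63), *Rxra* (1.55), *Rara* (1.18) and *Cyp26a1* (0.93). Here only the ranges of *Rxrb* and *Cyp26b1* did not overlap.

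The families were also described by the share of each gene in their summed RPKM within a library, which does not depend on the scaling between libraries. *Rxra* held 42.5%, 63.9% and 50.3% of the *Rxra* and *Rxrb* sum in Vmed replicates 1, 2 and 3 and 1.05%, 29.9% and 10% in Vhigh. The shares of the fractions did not overlap, and *Rxrb* held 70.1% or more in each Vhigh library. *Rxrg* was left out of this sum. Among the RAR genes, *Rarb* held the largest share in 4 libraries (37.1% to 85.0% in Vmed) and *Rarg* in 2, Vhigh replicates 1 and 3 (50.6% and 42.1%). The *Rarg* share was 23.6%, 13.0% and 34.3% in Vmed and 50.6%, 38.9% and 42.1% in Vhigh replicates 1, 2 and 3, higher in Vhigh without overlap, though its CPM overlapped. *Rara* held 28.6% or less in every library, and the *Rara* and *Rarb* shares overlapped between the fractions. *Cyp26b1* held 76.7% to 100% of the *Cyp26a1* and *Cyp26b1* sum in Vhigh and 45.3% to 62.0% in Vmed, without overlap. The Vhigh shares rest on 0, 20 and 23 counts of *Cyp26a1* in replicates 1, 2 and 3, and the CPM of *Cyp26b1* overlapped. The shares were noticed in the data and were not tested. Those of each RAR gene, *Rarg* included, carry the doubt about the *Rarb* counts, which are part of their sum.

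**Figure D4:**
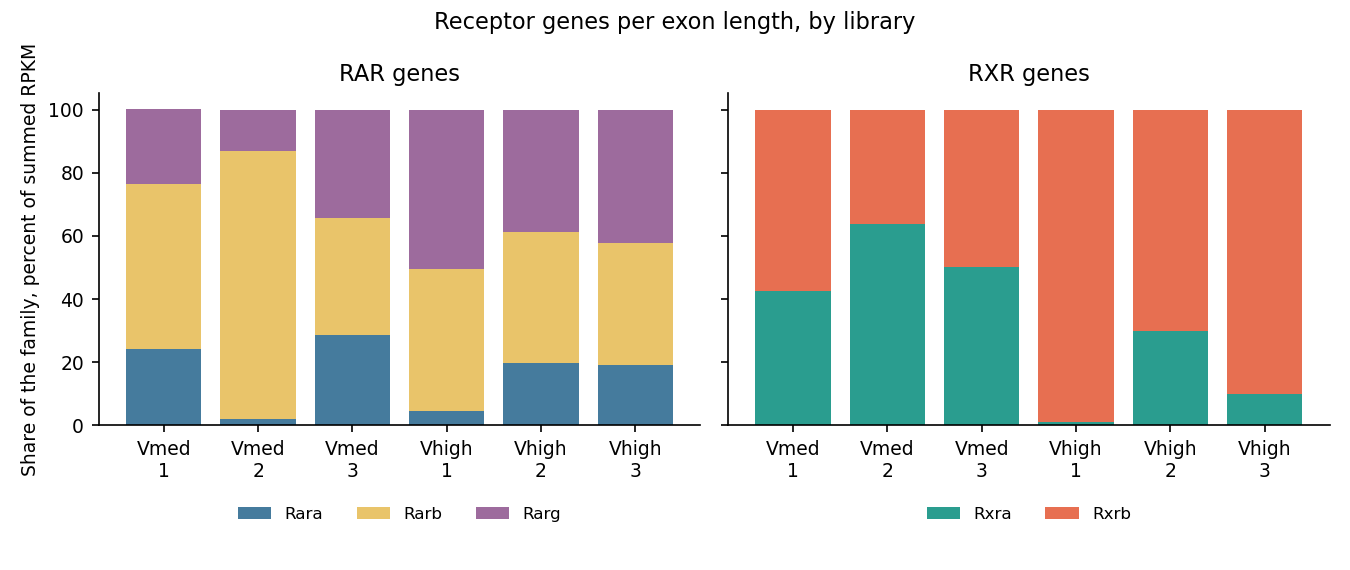
Share of each gene in the summed RPKM of the RAR genes (left) and of *Rxra* and *Rxrb* (right), in percent, 1 bar per library. The *Rxra* share is 42.5% to 63.9% in Vmed and 1.05% to 29.9% in Vhigh. The *Rarg* share is 13.0% to 34.3% in Vmed and 38.9% to 50.6% in Vhigh, while the *Rara* and *Rarb* shares overlap. All RAR shares carry the doubt about the *Rarb* counts.

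The 10 genes belong to a list of 61 retinoid genes written by hand. Of these, 47 were tested, and 0 had an adjusted p under 0.05 in either direction, with 2 lower and 0 higher in Vhigh at an unadjusted p under 0.05, against 149 lower (1.17%) and 110 higher of all 12688 genes tested. Their median log2 fold change was -0.56, and that of the 37 tested genes other than the 10 was -0.36, against -0.02 for all genes. Without overlap between the fractions were 8 of the 47 genes with Vhigh below (4.71% of all genes tested) and 0 with Vhigh above (4.15%). Among the 37 other than the 10 the count was 4, namely *Rdh14*, *Hoxb4*, *Cd38* and *Meis2*, which were picked after their values were seen. The 2 genes with an unadjusted p under 0.05 were *Aldh1a2* and *Dhrs3*.

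Among genes of retinol carriers and uptake, the 8 genes tested had a median log2 fold change of -1.21, and 8 of 8 were below 0. This group also holds *Crabp1* and *Crabp2* of the 10 genes, which bind retinoic acid. In the blocked fit *Rbp4* was above 0 (1.00 ± 3.30), and the others stayed below 0. *Stra6*, the receptor for retinol carried in blood, had 67.5, 57.0 and 10.6 CPM in Vmed and 0, 16.1 and 1.91 CPM in Vhigh (-3.08 ± 1.64, edgeR, unadjusted p = 0.11). Its fractions overlapped through Vmed replicate 3 and Vhigh replicate 2.

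Retinol and retinal dehydrogenases and reductases had a median log2 fold change of -0.42 over 8 tested genes. *Dhrs3* turns retinal back into retinol and is itself induced by retinoic acid. It was expressed at 234.8, 360.1 and 83.4 CPM in Vmed and at 84.8, 103.5 and 32.9 CPM in Vhigh replicates 1, 2 and 3, lower in Vhigh in 3 of 3 pairs though the fractions overlapped. Its fitted difference was -1.65 ± 0.65 (edgeR, unadjusted p = 0.032), and in the blocked fit -1.57 ± 0.31 (adjusted p = 0.67). *Adh5*, a widely expressed alcohol dehydrogenase, had the highest mean CPM, and its fitted difference was -0.42 ± 0.43.

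The coactivators and corepressors of the receptors were near the median of all genes, with a median log2 fold change of 0.11 over 13 genes, 4 of them below 0. *Hdac3*, a histone deacetylase of the corepressor complex, had the highest mean CPM (fitted difference 0.32 ± 0.53), and *Tbl1xr1*, a subunit of the same complex, the smallest unadjusted p of the group (fitted difference 1.09 ± 0.82). Genes known to be induced by retinoic acid had a median of -1.44 over 14 tested genes, 12 of them below 0. This group holds *Rarb*, *Cyp26a1* and *Crabp2* of the 10 genes and also *Dhrs3*. *Meis1*, a homeobox gene active in stem cells, had the highest mean CPM in it, and its fitted difference was -0.19 ± 0.60. *Rxrg*, the last RXR gene, was at 10.97 CPM or less in every library (fitted difference -1.36 ± 2.31).

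**Figure D5:**
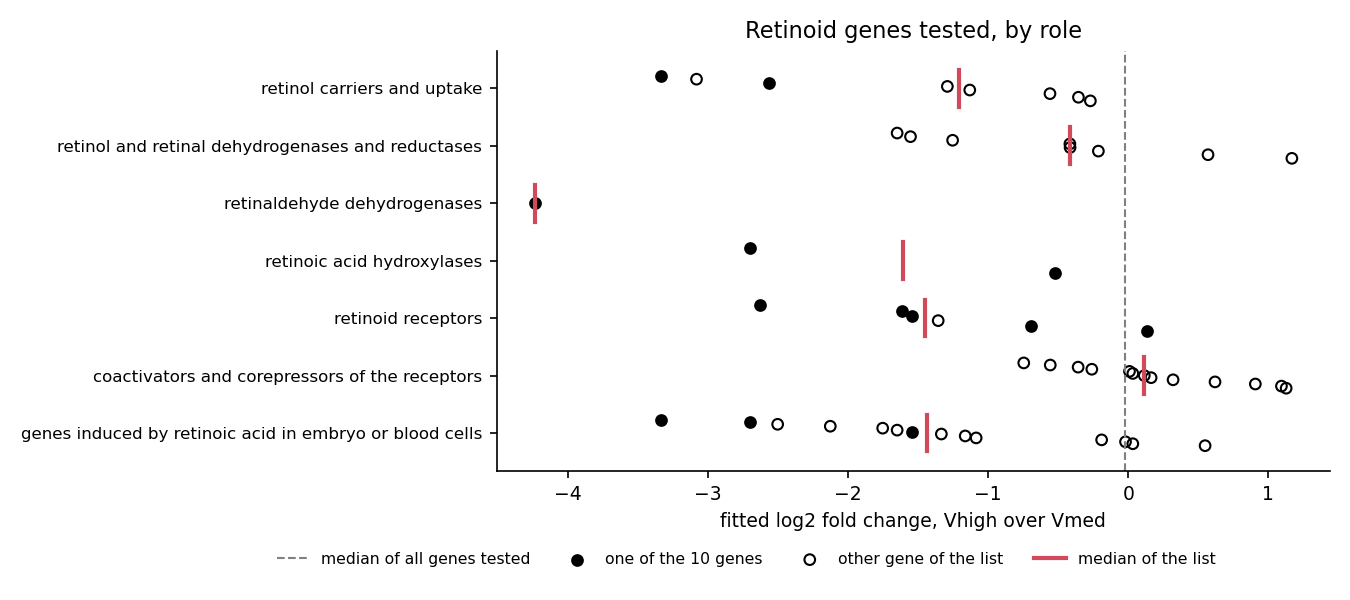
Fitted log2 fold change, Vhigh over Vmed, of the 47 retinoid genes tested, by role. Filled points are the 10 genes, open points others, red bars the median of each group and the dashed line the median of all 12688 genes tested (-0.02). Medians lie below 0 for each group but the coactivators and corepressors (0.11), and some genes stand in more than 1 group.

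The 14 retinoid genes that were not tested were low in most libraries. *Adh1*, an alcohol dehydrogenase that oxidizes retinol, was the exception in Vmed, with 78.4, 19.3 and 0 CPM, against 0.19, 0.46 and 0 CPM in Vhigh replicates 1, 2 and 3. *Rdh12*, a retinal reductase, had 0, 7.09 and 7.89 CPM in Vhigh and 0.84 CPM or less in Vmed. *Lrat*, which stores retinol as esters, had 10.5 CPM in Vhigh replicate 2 and 0.11 CPM or less in the others. *Rbp7*, *Rdh1*, *Dhrs9*, *Adh4*, *Adh7*, *Cdx1* and *Stra8* were at 3.13 CPM or less in every library.

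The genes whose pattern over the 6 libraries was most like that of *Aldh1a2* were *Myl7*, *Ntf5* and *Mtmr1* (Pearson r of log2(CPM + 0.5) of 0.98, 0.98 and 0.97, of 12687 genes compared). For *Crabp1* they were *AI450353*, *Dpcd* and *Hmgn3* (0.99, 0.99 and 0.98), and for *Rara* they were *Pdcd5*, *Ap5b1* and *2610018G03Rik* (1.00, 0.99 and 0.99). With 6 libraries and this many genes, values so high describe a likeness of pattern and nothing more.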

How the data were processed

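Single reads of 50 bases were aligned by the authors to GRCm38/mm10 with TopHat and Bowtie 1.1.2 and counted with HTSeq (tools per the submitters’ processing notes), and the deposited values are raw read counts per gene, 1 table per library. The annotation, strand setting and counting mode were not given in the sources used here. Lines for reads assigned to no gene were left out. The no-feature line made up 7.09% to 35.6% and the line for alignments that are not unique 41.3% to 57.7% of all counts, these lines included. Libraries were assigned by their titles. The members and lists were chosen with earlier results of these data known. CPM used the total count on genes. Genes kept by filterByExpr (12688 of 24062) were TMM-normalized and tested by edgeR 4.0.16 (quasi-likelihood, fraction as the only term, Benjamini-Hochberg at 0.05) in R 4.3.3, with limma 3.58.1 and DESeq2 1.42.0 as alternatives. Exact permutation tests used log2(CPM + 0.5) over all 20 arrangements. RPKM used the joined exons of GENCODE M21, which also gave positions, and promoters came from RefSeq. Named genes were the 10 members, the untested genes of the list, for each group its gene with the highest mean CPM and that with the smallest p, the sort markers, and the 3 genes most like each of *Aldh1a2*, *Crabp1* and *Rara*. A gene that the rule names is not reported here. Alternatives were other normalizations, filters and tests, the replicate block and single libraries left out.

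The replicate numbers in the labels were checked for pairing. Deviations from the fraction means correlated across genes with r of 0.24, 0.21 and 0.42 in pairs 1, 2 and 3, so the block was also fitted. The other 6 pairs were below 0. Deviations within a fraction sum to 0, so values above 0 in same-numbered pairs push the others below 0 on average. Those 6 values are therefore no separate sign of pairing. Replicates of a fraction differed by more than sampling noise (chi-square per degree of freedom of 144 or more). A count of 3, the smallest number taken as shown, corresponds to 0.249 to 0.362 CPM. These limits cover counting error only.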

Additional observations from a re-analysis of the deposited data

How the results depend on the processing

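The 10 genes kept the direction of their log2 fold change under each of the 11 other normalizations, filters, tests and block fits. The count of members past the threshold was 1 (*Aldh1a2*) with no filter on low counts (adjusted p = 0.0058) and 1 by DESeq2, and 0 under the 9 others, among them the replicate block (adjusted p of *Aldh1a2* 0.92 by quasi-likelihood and 0.062 by likelihood ratio) and edgeR's likelihood ratio test without it (0.054). The count for the retinoid list was 1 in the same cases. Over all genes, 37 passed with no filter, 51 by DESeq2, 21 by the likelihood ratio test and 74 by the likelihood ratio test with the replicate block, against 0 with the block in the quasi-likelihood test and 0 by limma-voom. Genes at an unadjusted p under 0.05, 259 in the report, numbered 538 with no filter, 494 by DESeq2, 478 by limma-voom, and 528 and 755 with the replicate block by quasi-likelihood and likelihood ratio. With single libraries left out they ranged from 207 to 450, and genes past the threshold from 0 to 1. The direction turned for *Rarg* (range -1.73 to 0.53) and *Rxrb* (-0.37 to 0.62, with -0.25 without Vmed replicate 2). *Aldh1a2* ranged from -4.81 to -2.52, *Rxra* from -3.34 to -2.08, *Cyp26a1* from -3.21 to -2.13, *Rarb* from -2.49 to -1.07 and *Rara* from -2.81 to -0.37. The block changed no call of the retinoid genes. The biological coefficient of variation of 1.16 is a common value over genes. Standard errors were computed gene by gene and ran from 0.92 for *Aldh1a2* to 2.07 for *Cyp26a1* among the 10 genes. The permutation test cannot go below 0.1, and genes at a few counts in a Vhigh library (*Cyp26a1*, *Crabp1*, *Crabp2*, *Rara*, *Rxra*) have folds that rest on those counts.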
